A study of Mus musculus with 23 samples.

Results

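The Pxr gene (Nr1i2) encodes the pregnane X receptor (PXR), and it lies near 38.25 Mb on mouse chromosome 16 (mm9). The genes that lie around it on the same chromosome were examined in the livers of wild-type (WT) and Pxr-/- mice. A microarray probe was a member when its mm9 coordinates fell between 18.25 and 58.25 Mb on chromosome 16, which is 20 Mb on each side of the locus, with the Nr1i2 probe itself left out. A total of 860 probes met this rule. Of these, 513 probes of 324 genes were kept as members because, in 1 or more of the groups, over 50% of arrays had them well above background, among 32087 kept probes of 21056 genes on the whole array. The other 347 probes of the window were set aside as too dim. Of the 513, 431 were well above background on all 23 arrays, 45 passed the filter in only 1 to 3 of the 4 groups, and none was saturated.

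Male C57Bl6/J mice in 4 groups were compared (23 arrays, 1 liver each): WT CONT (n = 6), WT PCN (n = 5), Pxr-/- CONT (n = 6) and Pxr-/- PCN (n = 6). PCN (pregnenolone 16α-carbonitrile) was injected intraperitoneally at 100 mg/kg in corn oil once a day for 4 days, and CONT mice were given the oil without PCN. Livers were taken at ZT6, 6 h after the last injection. Mice of both genotypes were acclimatized for 2 weeks. Pxr-/- mice carried the knockout on a backcrossed C57Bl/6J background. They had been bred for 10 years in the animal facility of the study, whereas WT mice were bought at 6 weeks of age. Genotype and colony therefore cannot be told apart. The age of the Pxr-/- mice, the embryonic stem cell strain and the deleted exons of the Pxr allele are not given in the sources used here.

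PXR is a ligand-activated nuclear receptor. In the liver it pairs with the retinoid X receptor and binds repeats of half-sites such as AGTTCA. It induces genes for the oxidation, conjugation and transport of drugs and bile acids. PCN is a steroid that activates the rodent receptor. Genes close to a targeted locus are inherited with it. After a targeted allele made in the cells of one mouse strain is crossed into another, a stretch of the donor chromosome around the locus can be kept, and its length shrinks with backcrossing. The window was set wide enough to look for genotype differences at a range of distances from Pxr. The genotype comparisons, under vehicle and under PCN, had no array in common. They came from the same fit, with a shared estimate of the spread and a shared washing batch term, so they are not fully independent.

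Each probe is a 60-base oligonucleotide, and the genotype comparison of a gene rests on its few kept probes. Among 12 genes that passed an adjusted p of 0.05 in both genotype comparisons, 4 had over 1 kept probe. These were Pigx, Abi3bp, Cd47 and Tbc1d23, and Pigx alone passed on every kept probe. The rest of the 12, among them Ift57, Senp5, Abhd10, Tctex1d2 and Pla1a, rest on 1 probe each. The first 30 bases are shown for 9 probes that passed an adjusted p of 0.05 in both genotype comparisons, with their mm9 positions and strands.
Senp5, chr16:31983595-31983654 (-): catcttctacaataagcacatgctggatat
Pigx, probe 1, chr16:32084515-32084574 (-): ctgtaagttttgtacagctaagtgttttct
Pigx, probe 2, chr16:32087389-32087448 (-): cacataagaaagatggagacaccctcattg
Tctex1d2, chr16:32426977-32428870 (+): ggacaactacactcacgatgttttcatgaa
Pla1a, chr16:38396287-38396346 (-): tctaacgctttacataaatgcccttttagc
Abhd10, chr16:45731975-45732034 (-): gccatctagatacaacaaggaaggctattt
Ift57, chr16:49764123-49764182 (+): cttcaagcatattcagtgggtatttttgca
Cd47, chr16:49912306-49912365 (+): gcagaggcgtggcatctacagaagagcaga
Abi3bp, chr16:56689984-56690043 (+): tgcttaggccatgaatgaatgtatcacaga
These probes run from 6.27 Mb below to 18.44 Mb above the locus. The median GC content was 36.7% over all 13 probes that did so and 41.7% over all members. No genome or transcript annotation of mm9 was used here, so the exon or untranslated region under each probe is not stated.

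Promoter sequence was available from RefSeq (GRCm38.p6, a later build than that of the probes) for 185 member genes. The 250 bases before the transcription start are shown for Pigx and Senp5, which lie in the same stretch and were both lower in Pxr-/- mice, and for Ift57, which had the largest genotype difference under vehicle. Capitals mark a match to 1 spelling of the PXR half-site (AGTTCA or its reverse complement TGAACT).
Pigx, chr16:32099728-32099977 (-): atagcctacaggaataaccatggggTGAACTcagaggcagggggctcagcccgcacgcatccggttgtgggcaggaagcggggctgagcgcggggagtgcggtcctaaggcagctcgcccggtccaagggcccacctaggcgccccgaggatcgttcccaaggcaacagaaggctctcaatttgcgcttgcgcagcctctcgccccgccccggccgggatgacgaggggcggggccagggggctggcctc
Senp5, chr16:32003288-32003537 (-): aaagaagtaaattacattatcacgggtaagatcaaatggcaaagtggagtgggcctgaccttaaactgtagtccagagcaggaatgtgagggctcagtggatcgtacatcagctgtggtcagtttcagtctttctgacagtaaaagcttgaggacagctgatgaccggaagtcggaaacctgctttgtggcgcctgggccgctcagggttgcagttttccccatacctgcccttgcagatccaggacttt
Ift57, chr16:49699044-49699293 (+): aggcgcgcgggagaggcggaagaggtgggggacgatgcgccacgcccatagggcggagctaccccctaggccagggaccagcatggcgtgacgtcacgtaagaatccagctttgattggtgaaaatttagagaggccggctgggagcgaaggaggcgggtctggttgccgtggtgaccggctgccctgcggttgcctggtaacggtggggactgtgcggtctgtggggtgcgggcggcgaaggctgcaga
The Pigx promoter held 1 match, at -225 relative to the start, and the Senp5 and Ift57 promoters held no match to this spelling. Other spellings of the half-site were not counted. Counting 250 bases before to 50 after the start, this spelling was present in 3 of 11 promoters (27.3%) of the genes that differed between genotypes under both treatments. It was present in 13.2% of 234 promoters of member genes and in 14.0% of all 32851 promoters. The direct repeat of AGTTCA with 4 bases between its copies (DR4) was found in 4 of all promoters (0.0122%), and in none of the member genes. A match of this kind describes the letters and is not evidence of a binding site.

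Arrays had between 29510 and 33321 probes well above background, and each array correlated with its own group at a median r of 0.989 to 0.995. The number of arrays limits the precision of the values, as do dim probes and the choice of processing. A p-value sets a difference against the spread between these mice. The defining markers of hepatocytes were all kept (8 of 8, of which 2 were called higher in Pxr-/- mice under PCN), and the summed signals of the marker lists of Kupffer, stellate, endothelial, cholangiocyte, lymphocyte, blood and pancreas cells overlapped between the genotypes. One of 5 kept cholangiocyte markers was called lower in Pxr-/- mice under PCN, and the median difference of that list was -0.40 under vehicle and -0.32 under PCN. In bulk liver, fewer cells of a type and less RNA per cell cannot be told apart. The Nr1i2 probe did not separate the genotypes. It read 10.63 to 12.15 in WT CONT and 10.16 to 12.08 in Pxr-/- CONT (log2 signal), with a difference of -0.03 (limma adjusted p = 0.98) under vehicle and -0.23 (adjusted p = 0.68) under PCN. Whether this probe lies outside the deleted part is not known, so it checks no label. Before normalization, Pxr-/- arrays were dimmer than WT arrays by a log2 difference of -0.125 under vehicle (exact permutation p = 0.182, two-sided) and -0.214 under PCN (exact permutation p = 0.00216, the smallest possible, adjusted over 2 tests 0.00433). The part of this gap in the PCN comparison was not tested.

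Under vehicle, 11 of the 513 members differed between Pxr-/- and WT mice (limma, adjusted p of at most 0.05 over all 32087 probes and a fold change above 1.5). Of these members, 3 were higher in Pxr-/- mice (0.585% against 0.209% of all probes tested) and 8 were lower (1.56% against 0.0623%). The 11 probes, of 10 genes, were 2.14% of the window, whereas 0.345% of the 580 probes on the rest of chromosome 16 and 0.236% of those on the other chromosomes were called. On single other chromosomes the share ran from 0% to 0.659%. The median difference of the window was -0.01, as it was over all probes, and its median absolute difference was 0.107 against 0.0874 over all probes. On single other chromosomes the median absolute difference ran from 0.0816 to 0.0952. The window thus held a small number of probes with large differences, mostly lower in Pxr-/- mice. Its typical absolute difference was also somewhat larger than on any other chromosome. Among probes well above background on all arrays, 3 were higher and 6 lower. Within washing batch 1 alone (3 against 3 arrays) 2 members were called (0.390% against 0.0436% of all probes), and within batch 2 alone 4 (0.780% against 0.221%).

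Under PCN, 22 members of 21 genes differed, 11 higher (2.14% against 0.636%) and 11 lower (2.14% against 1.15%). They made up 4.29% of the window, beside 0.862% of the rest of chromosome 16. Other single chromosomes ran from 0.574% to 4.02%, so the share of the window was close to that of chromosome 15. More probes were called on the whole array under PCN than under vehicle, so a call in this comparison alone does not set the window apart. With the deposited values the split was 5 higher and 27 lower, and 6.29% of the window was called beside 4.51% of all probes. The median difference over all probes under PCN was then -0.182, against 0.011 in the main fit. The part of this shift in the calls lost with the deposited values was not tested. Within washing batch 1, 11 members were called (2.14% against 1.16% of all probes), and within batch 2 (3 against 2 arrays) 3 (0.585% against 0.452%).

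**Figure D1:**
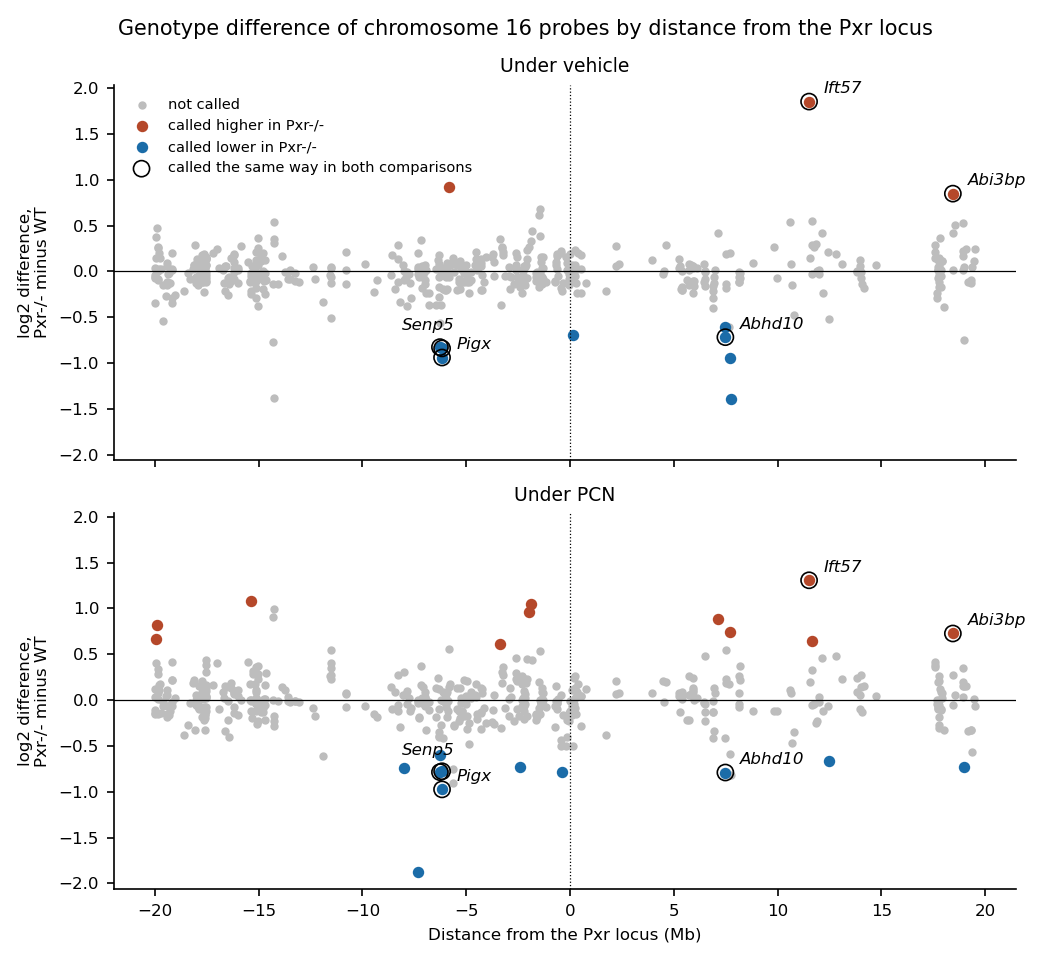
Difference in log2 signal between Pxr-/- and WT mice (y axis) for each of the 513 probes against its distance from the Pxr locus in Mb (x axis), under vehicle (top) and under PCN (bottom). Red and blue points were called higher and lower in Pxr-/- mice, and rings mark the 6 probes called the same way in both panels, which lie at 4 places from -6.27 to 18.44 Mb with most probes between them near 0.

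A larger share of the window than of the whole array differed between genotypes under both treatments. In both comparisons, 6 probes of 5 genes (Pigx, Senp5, Abhd10, Ift57 and Abi3bp) were called with the same sign, which is 1.17% of the window against 0.0467% of all probes tested (15 probes). None was called with opposite signs, 5 members were called under vehicle alone, 16 under PCN alone, and 486 in neither comparison. With the adjusted p of 0.05 alone and no limit on fold, 13 members of 12 genes passed in both comparisons with the same sign. That is 2.53% of the window against 0.118% of all probes (38 probes), with 4 probes on the rest of chromosome 16 and 20 on all other chromosomes (0.0648%). Of the 13, Tagln3 and Gm15638 were dim and had passed the filter through WT groups, where they were higher. A set of 8 members of 7 genes had every Pxr-/- array on one side of every WT array whatever the treatment, 2 higher and 6 lower, which is 1.56% of the window against 0.0467% of all probes. One of the 8 was Tagln3, which was not well above background in most groups, and 7 remain without it. No probe on the rest of chromosome 16 and 7 probes on the other chromosomes did so, and no other chromosome held more than 1. Over the 513 members, the differences under vehicle and under PCN had a Pearson correlation of 0.427 (Spearman 0.346), against 0.155 (0.210) over all probes and -0.102 to 0.339 on single chromosomes. These are correlations across probes, which are not independent. Both signs were the same in 60.4% of members and in 57.5% of all probes.

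**Figure D2:**
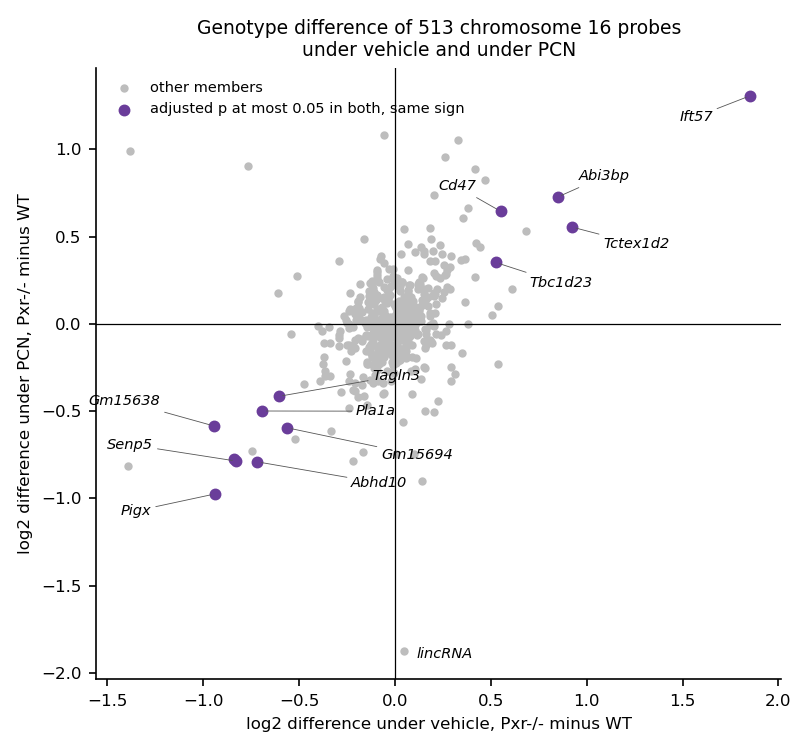
Genotype difference under vehicle (x axis) against that under PCN (y axis), both in log2, for the 513 probes. The 13 purple points passed the adjusted p in both comparisons, from Pigx at -0.94 and -0.97 to Ift57 at 1.85 and 1.31, whereas the lincRNA probe differed under PCN alone (-1.88).

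The 13 probes fell into 5 short stretches. The first ran from 31.98 to 32.43 Mb, about 6 Mb below Pxr. It spanned 445 kb and held Senp5, Gm15694 and both Pigx probes, all lower in Pxr-/- mice, and Tctex1d2, which was higher. The 15 other kept probes in it, of 13 genes, differed by -0.36 to 0.09 under vehicle and by -0.42 to 0.15 under PCN. Of these probes, 1 passed the adjusted p in either comparison, in Cep19, a centrosomal protein gene (-0.42 under PCN, adjusted p = 0.0086). Genes with large differences were therefore interspersed with genes that showed little.

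Pigx encodes a subunit of the mannosyltransferase that builds the glycosylphosphatidylinositol anchor of surface proteins. Its first probe read 10.18 to 10.50 (median 10.29) in WT CONT and 9.08 to 9.93 (median 9.18) in Pxr-/- CONT on the normalized log2 scale. With PCN, the 5 WT mice read 10.23, 10.59, 10.06, 10.21 and 10.26, and Pxr-/- mice 8.91 to 9.84 (median 9.06). Every Pxr-/- liver was below every WT liver, in both treatments. The difference was -0.94 ± 0.16 (SE; 1.92-fold lower, limma adjusted p = 0.0065) under vehicle and -0.97 ± 0.17 (1.97-fold lower, adjusted p = 0.0013) under PCN. The second probe, some 3 kb away, gave -0.84 (adjusted p = 0.0040) and -0.78 (adjusted p = 0.0025), again with no overlap.

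Senp5 encodes a protease that removes SUMO from proteins. WT CONT mice read 7.89 to 8.14 (median 8.0) and Pxr-/- CONT mice 6.82 to 7.56 (median 7.22). Under PCN, WT mice read 7.83, 7.95, 7.97, 7.86 and 7.81 and Pxr-/- mice 6.79 to 7.51 (median 6.97). The genotypes did not overlap. Senp5 was lower in Pxr-/- mice by -0.83 ± 0.13 (limma adjusted p = 0.0033) under vehicle and -0.79 ± 0.14 (adjusted p = 0.0016) under PCN. The predicted gene Gm15694, 3 kb further on, was lower by -0.56 (adjusted p = 0.023, under the fold limit) and -0.60 (adjusted p = 0.0042), and its groups overlapped in part. The PCN call of Gm15694 was lost without any 1 of 5 arrays (WT PCN replicates 1 and 2, Pxr-/- PCN replicates 1, 3 and 6), with normexp correction (-0.41), with scaling to the 75th percentile (-0.48) and without the washing batch term (-0.58).

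Tctex1d2 encodes a dynein light chain of the Tctex1 family and went the other way. WT CONT livers read 8.14 to 8.84 (median 8.52) and Pxr-/- CONT livers 9.23 to 9.70 (median 9.41). In the PCN groups, the WT values were 8.88, 8.81, 8.91, 8.57 and 8.65 and the Pxr-/- values 9.03 to 9.66 (median 9.28). No Pxr-/- value reached down to a WT value of either treatment. The difference was 0.92 ± 0.12 (1.90-fold higher, limma adjusted p = 2.4e-04) under vehicle and 0.55 ± 0.13 (adjusted p = 0.0096, under the fold limit) under PCN. With the deposited values the PCN difference was 0.32 (adjusted p = 0.082).

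**Figure D3:**
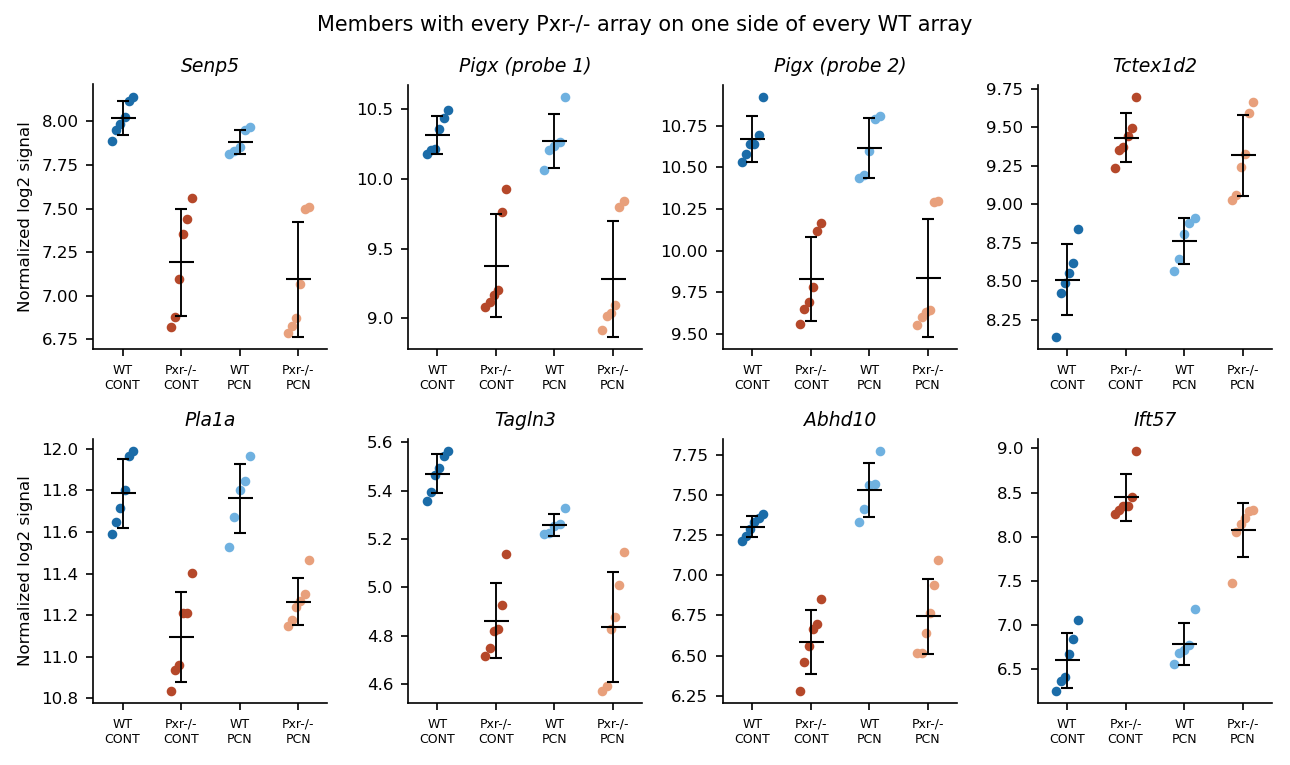
Normalized log2 signal (y axis) of each array in the 4 groups for the 8 probes of 7 genes whose Pxr-/- arrays all lay on one side of the WT arrays. Bars are the mean and SD (n = 6, and 5 in WT PCN), and Tctex1d2 and Ift57 were higher in Pxr-/- mice whereas the other 6 probes were lower.

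Pla1a was the one member of the 13 close to Pxr, at 0.15 Mb. It encodes a secreted phospholipase A1 that acts on phosphatidylserine. The probe read 11.59 to 11.99 (median 11.76) in WT CONT and 10.83 to 11.40 (median 11.09) in Pxr-/- CONT. Under PCN it read 11.84, 11.67, 11.96, 11.53 and 11.80 in WT mice and 11.15 to 11.46 (median 11.25) in Pxr-/- mice. The 2 genotypes were apart under each treatment. The difference was -0.69 ± 0.10 (1.62-fold lower, limma adjusted p = 8.4e-04) under vehicle and -0.50 ± 0.10 (adjusted p = 0.0053, under the fold limit) under PCN.

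A further stretch of 246 kb began at 45.71 Mb and held Tagln3, Abhd10 and Gm15638, all lower in Pxr-/- mice. The 4 other kept probes in it, of Phldb2 and TC1670009, differed by -0.61 to 0.18 under vehicle. Under PCN they were all higher in Pxr-/- mice, by 0.17 to 0.55, and 1 passed the adjusted p in either comparison. Abhd10 encodes a mitochondrial serine hydrolase. Its signal was 7.21 to 7.38 (median 7.31) in WT CONT and 6.28 to 6.85 (median 6.61) in Pxr-/- CONT. Under PCN, WT mice read 7.56, 7.57, 7.33, 7.78 and 7.42, and Pxr-/- mice 6.52 to 7.09 (median 6.70). All Pxr-/- values were below all WT values. Abhd10 was lower by -0.72 ± 0.10 (limma adjusted p = 8.9e-04) and by -0.79 ± 0.11 (adjusted p = 8.0e-05), without and with PCN. With normexp background correction the vehicle difference was -0.58, just under the fold limit.

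The other 2 members of this stretch were dim. Tagln3, which encodes a transgelin-like protein best known from neurons, stood well above background on 5 of the 6 arrays of WT CONT and on none of Pxr-/- CONT. Its fold was at least 1.14 under vehicle (adjusted p = 0.0010, measured means 5.47 and 4.86), counting a dim array at no less than the lowest signal well above background on it. Under PCN it was not well above background in WT mice and was so on 1 of 6 Pxr-/- arrays, so the measured difference of -0.42 (adjusted p = 0.0087) has no usable fold. The vehicle call was lost with normexp correction (-0.28), with scaling to the 75th percentile (-0.54) and without Pxr-/- CONT replicate 4 (-0.57). Gm15638, a predicted gene, stood well above background on each of the 6 arrays of WT CONT and on none of Pxr-/- CONT, at least 1.72-fold lower in Pxr-/- mice (adjusted p = 0.0027; with normexp -0.56, under the fold limit). Under PCN its difference was -0.58 (adjusted p = 0.027), with 4 of 5 WT and 2 of 6 Pxr-/- arrays above background. Both probes had passed the filter through WT groups, so a lower value in Pxr-/- mice was favoured by the way they were kept. Close by, 7.73 Mb above Pxr, the RIKEN transcript A130072N09Rik was lower under vehicle by -1.39 ± 0.25 (adjusted p = 0.0092) and by -0.82 ± 0.27 (adjusted p = 0.062) under PCN, and the vehicle call was lost when the 2 vehicle groups were fitted alone (adjusted p = 0.084). Its WT CONT values ran from 8.91 to 10.06 and its Pxr-/- CONT values from 7.33 to 8.94, which overlapped by a small margin.

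Ift57 had the largest difference of any member under vehicle. It encodes a component of the intraflagellar transport complex that builds the primary cilium, and its probe lies 11.51 Mb above Pxr. WT CONT mice read 6.24 to 7.05 (median 6.54) and Pxr-/- CONT mice 8.25 to 8.98 (median 8.35). With PCN, WT mice read 6.56, 6.68, 6.77, 7.18 and 6.72, and Pxr-/- mice 7.47 to 8.30 (median 8.18). The lowest Pxr-/- liver stood above the highest WT liver. Ift57 was 3.61-fold higher under vehicle (1.85 ± 0.16 on the log2 scale, limma adjusted p = 4.3e-07) and 2.47-fold higher under PCN (1.31 ± 0.16, adjusted p = 2.6e-05). The 2 differences were not shown to be unequal (interaction -0.55 ± 0.23, adjusted p = 0.26). Within washing batch 1 they were 2.11 and 1.37, and within batch 2 they were 1.59 and 1.25.

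Cd47, 148 kb beyond Ift57, encodes the surface ligand that restrains phagocytosis by macrophages. WT CONT livers read 10.15 to 10.53 (median 10.39) and Pxr-/- CONT livers 10.78 to 11.06 (median 10.94). Under PCN, the WT values were 10.11, 9.91, 10.07, 9.99 and 9.98 and the Pxr-/- values 10.46 to 10.79 (median 10.65). Within each treatment the genotypes were apart, but Pxr-/- PCN and WT CONT overlapped. The difference was 0.55 ± 0.07 (limma adjusted p = 2.4e-04, under the fold limit) under vehicle and 0.64 ± 0.07 (1.56-fold higher, adjusted p = 8.1e-06) under PCN. With the deposited values, whose median PCN difference over all probes was -0.182, the Cd47 difference was 0.39 (adjusted p = 0.0018), under the fold limit. A second Cd47 probe showed 0.29 (adjusted p = 0.071) and 0.32 (adjusted p = 0.0094).

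The last stretch, from 56.69 to 57.17 Mb, held Abi3bp and Tbc1d23. Abi3bp encodes an extracellular matrix protein. WT CONT livers read 5.93 to 6.45 (median 6.07) and Pxr-/- CONT livers 6.52 to 7.38 (median 6.96). Under PCN the WT values were 5.94, 6.11, 6.05, 6.29 and 6.12 and the Pxr-/- values 6.06 to 7.22 (median 6.92), so that 1 Pxr-/- PCN array fell among WT. Abi3bp was higher by 0.85 ± 0.16 (limma adjusted p = 0.013) and 0.73 ± 0.17 (adjusted p = 0.011), while its other kept probe gave 0.42 (adjusted p = 0.14) and 0.27 (adjusted p = 0.19). The PCN call was lost to the fold limit with normexp background correction (0.56) and with the deposited values (0.57). Tbc1d23, a gene of vesicle capture at the Golgi, had 3 kept probes that disagreed. One was higher in Pxr-/- mice (0.53, adjusted p = 0.0020, and 0.35, adjusted p = 0.015; with the deposited values 0.39, adjusted p = 0.066, and 0.12, adjusted p = 0.39), a second gave 0.17 and 0.16 (adjusted p = 0.48 and 0.33), and the other was lower (-0.75, adjusted p = 0.058, and -0.73, adjusted p = 0.017).

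The Pxr-/- livers showed a recurring order at these probes. In the Pxr-/- PCN group, replicate 2 lay nearest to the WT side at all 13 probes. It did so at 10 of the 25 probes outside the window that passed the same criterion, of which 4 lie on the rest of chromosome 16. In the Pxr-/- CONT group, replicate 2 was nearest at 6 and replicate 4 at 4 of the 13. For the first Pigx probe, Pxr-/- CONT replicates 2 and 4 read 9.93 and 9.76 and Pxr-/- PCN replicates 2 and 5 read 9.84 and 9.80, whereas the other 8 Pxr-/- livers read 8.91 to 9.20 and WT livers 10.06 to 10.59. For the second Pigx probe the same 4 livers read 10.12, 10.16, 10.30 and 10.29, between the other Pxr-/- livers (9.55 to 9.78) and the WT livers (10.43 to 10.93). For Senp5 they read 7.56, 7.44, 7.51 and 7.50 against 6.79 to 7.35 in the other Pxr-/- livers, a smaller gap. These livers were singled out after their values were seen, and no test was made on them. Without Pxr-/- PCN replicate 2, the count called in both comparisons rose from 6 to 10 of 513 (17 of all probes), and the Abi3bp difference under PCN from 0.73 to 0.89 and that of Ift57 from 1.31 to 1.42. That array lay nearest to WT at all 13 probes, so wider differences without it follow from how it was picked.

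Over all members, the size of the difference did not follow distance from Pxr. The Spearman correlation of the absolute difference with distance was -0.001 under vehicle and -0.035 under PCN over 513 probes, which share arrays and genes. Calls were less even. Under vehicle, 9 of 269 probes within 10 Mb were called (3.35%), 1 higher and 8 lower, among them the dim Tagln3 and Gm15638. Of the 9, 8 lay at 5 to 10 Mb. Farther out, 1 of 69 was called at 10 to 15 Mb and 1 of 175 at 15 to 20 Mb. Under PCN the calls were 14 of 269 (5.2%), 3 of 69 and 5 of 175. Below the locus, the 13 probes were absent from the bins at 20 to 15 Mb (0 of 134 probes), 15 to 10 Mb (0 of 40), 5 to 2 Mb (0 of 64) and 2 to 0 Mb (0 of 43), and 5 of 84 lay at 10 to 5 Mb (5.95%). Above the locus they were 1 of 19 probes within 2 Mb, 0 of 7 at 2 to 5 Mb, 3 of 52 at 5 to 10 Mb, 2 of 29 at 10 to 15 Mb and 2 of 41 at 15 to 20 Mb. The 3 of 52 were Abhd10 and the dim Tagln3 and Gm15638, the last 2 kept through WT groups. The 2 bins nearest above the locus held 12 and 6 genes, too few to read. On the rest of chromosome 16, 1 of 279 probes before the window and 3 of 300 after it passed the same criterion. The 3 were those of Crybg3 (-0.87 under each treatment, and -0.47 and -0.37 on a second probe) and Arl6 (-0.40 and -0.39), which lie just beyond the upper edge. At the lower edge of the window, the first member was a Trmt2a probe at 18.25 Mb (-0.34, limma adjusted p = 0.0497, under vehicle and -0.11, adjusted p = 0.44, under PCN). The next member, a second Trmt2a probe, gave -0.045 (adjusted p = 0.85) under vehicle. The nearest kept probe outside the window belonged to Ranbp1 (-0.11 under vehicle and -0.37, adjusted p = 0.015, under PCN). On the upper side the last member differed by 0.24 under vehicle and the next probe outside, of Dcbld2, by 0.22.

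**Figure D4:**
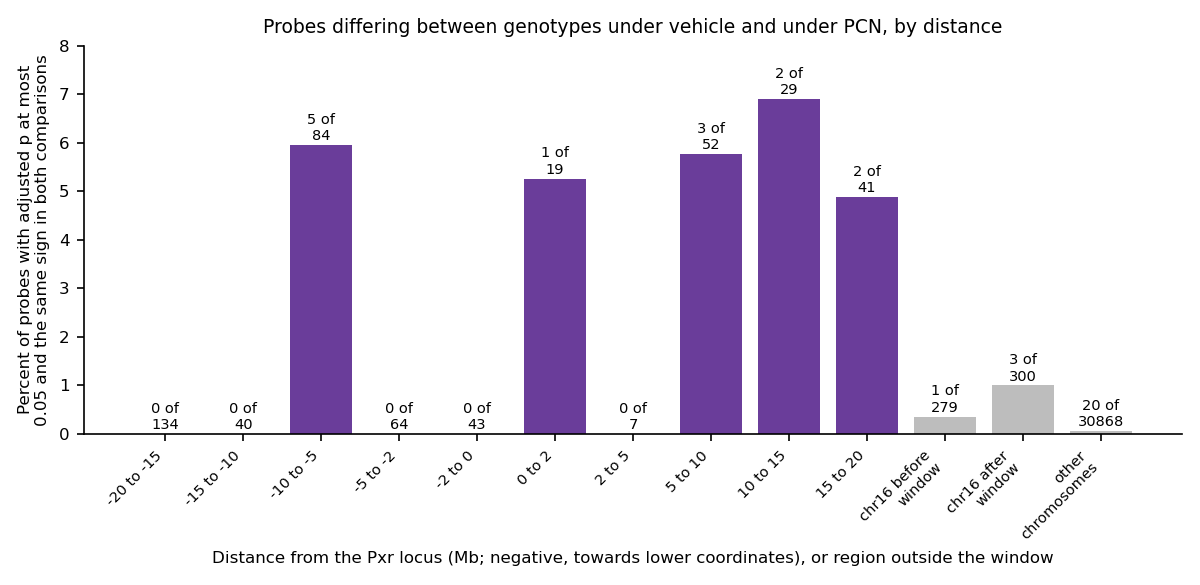
Percent of kept probes that passed an adjusted p of 0.05 with the same sign under vehicle and under PCN (y axis), by distance from Pxr in Mb (purple bars) and for regions outside the window (grey bars), with counts above each bar. Bars of 4.88% to 6.90% stand at -10 to -5 Mb, at 0 to 2 Mb and at the 3 bins above 5 Mb, the other bins of the window are at 0, and the bar for the other chromosomes is 20 of 30868 probes. The bar at 5 to 10 Mb counts Tagln3 and Gm15638, which were dim and kept through WT groups.

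Among the listed genes in the immediate vicinity of Pxr, Pla1a was the one called. Of 17 listed genes within 1 Mb, 14 had kept probes. One of the 14 (Pla1a) was lower under vehicle, none was called under PCN, and the median differences were -0.05 and -0.02. On the whole array 71 of 21056 genes were called under vehicle and 501 under PCN. Gsk3b, which encodes glycogen synthase kinase and adjoins Pxr, differed by 0.01 (adjusted p = 0.96) and -0.12 (adjusted p = 0.27). Cox17, a copper chaperone for cytochrome c oxidase that lies 0.10 Mb away, differed by -0.11 (adjusted p = 0.57) and 0.11 (adjusted p = 0.36). Ndufb4, a subunit of respiratory complex I, differed by -0.06 (adjusted p = 0.77) and 0.01 (adjusted p = 0.95). The complex I assembly gene Timmdc1 was at 0.24 (adjusted p = 0.31) and 0.26 (adjusted p = 0.086) on its brightest probe, and Lrrc58 at -0.13 (adjusted p = 0.68) and -0.16 (adjusted p = 0.39). Each of these genes was read from 1 probe, of 4 kept for Gsk3b and 3 each for Cox17 and Timmdc1. Members near Pxr that are not on this list were called under PCN, namely the predicted gene Gm36028, 0.40 Mb below (-0.79), and, within 2 Mb below, Stfa1 and BC100530, which together are 3 of 43 probes there (6.98%).

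The window also carries a cluster of genes for proteins that hepatocytes secrete into plasma. All 11 listed genes were kept, and Pla1a was again the one called, under vehicle, with list medians of -0.01 and 0.00. Under vehicle 71 of all 21056 genes were called. Kng1, encoding the precursor of the kinins, read 17.95 to 18.18 in WT CONT and 18.01 to 18.13 in Pxr-/- CONT, a difference of 0.04 (adjusted p = 0.82). Ahsg, encoding fetuin-A, differed by -0.01 (adjusted p = 0.95) under vehicle and 0.00 (adjusted p = 0.99) under PCN. Fetub, encoding the related fetuin-B, differed by 0.06 (adjusted p = 0.82) and -0.19 (adjusted p = 0.16), and Masp1, a protease of the lectin pathway of complement, by 0.20 (adjusted p = 0.31) and 0.01 (adjusted p = 0.97). Kng1 and Masp1 were read from 1 probe each, of 3 and 5 kept. Hrg (histidine-rich glycoprotein) and Kng2 passed the adjusted p under PCN with small differences of 0.31 (adjusted p = 0.037) and 0.28 (adjusted p = 0.033), below the fold limit. Kng1 and Kng2 are close copies whose probes may share signal.

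Other roles were represented by few calls. None of the 9 kept genes of the mitochondrial list (which does not hold Abhd10), 12 transcription and chromatin genes, 10 membrane transport genes or 11 translation genes was called in either genotype comparison. On the whole array 71 of 21056 genes were called under vehicle and 501 under PCN, so a short list without a call says little. Of 18 metabolic and glycan enzymes, Pigx was the one called, lower under both treatments. Of 16 signalling genes 1 was higher under PCN (Mylk, myosin light chain kinase, 0.61, adjusted p = 0.0044, on the 1 probe given of 5 kept). Of 16 immune genes, with 28 kept probes, 3 were higher under PCN (Cd47, Cd200 and Stfa1), where 0.636% of all probes were. Of these, the Cd47 call was lost with the deposited values and that of Stfa1, kept through PCN groups, when the PCN groups were fitted alone. Median differences of these lists lay between -0.11 and 0.07 under vehicle and between -0.12 and 0.22 under PCN, beside -0.01 and 0.01 over all probes.

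Under PCN alone, 16 members were called. The one with the largest difference was a lincRNA probe 7.31 Mb below Pxr (chr16:30939997-30940056, + strand). It read 10.31 to 10.65 (median 10.44) in WT CONT and 11.82, 13.38, 12.78, 13.53 and 12.87 in WT PCN. In Pxr-/- mice it read 10.42 to 10.60 (median 10.50) without and 10.82 to 11.14 (median 11.04) with PCN. WT PCN livers stood above all others, and the untreated genotypes overlapped. PCN raised it by 2.44 ± 0.18 in WT mice (5.41-fold, limma adjusted p = 5.4e-09) and it read 0.51 ± 0.17 higher with PCN in Pxr-/- mice (adjusted p = 0.075), and the difference between these responses was -1.92 ± 0.25 (adjusted p = 8.4e-05). Genotype by PCN interaction was called for 2 members (0.390% of the window against 0.882% of all probes). The other was a dim lincRNA probe 0.19 Mb below Pxr (-0.65 ± 0.16, adjusted p = 0.040), whose call was lost in 13 of 23 fits that each left out 1 array.

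Among the rest of the 16, Dnajb11, an endoplasmic reticulum co-chaperone, was higher in Pxr-/- PCN livers on 1 of 3 probes (1.08, adjusted p = 0.0060, the others -0.12 and -0.02). Its WT PCN values on that probe were 8.63, 7.79, 7.79, 8.14 and 8.82, against 8.93 to 9.86 in Pxr-/- PCN, and the vehicle groups overlapped (-0.06, adjusted p = 0.95). Cd200, which encodes a ligand that restrains myeloid cells, was higher by 0.89 ± 0.17 (adjusted p = 0.0035). Plcxd2 was higher by 0.74 (adjusted p = 0.017), a call lost without WT PCN replicate 2 (0.58, adjusted p = 0.073). Hspbap1 was lower by -0.74 (adjusted p = 0.0023) on 1 of 2 probes, and Gm36028, 0.40 Mb below Pxr, by -0.79 (adjusted p = 0.0037). 9530053J19Rik, 19.92 Mb below Pxr, was higher by 0.82 (adjusted p = 0.032), a call lost without any 1 of 6 arrays. 5330426P16Rik was lower by -0.66 (adjusted p = 0.0047), beside -0.52 (adjusted p = 0.084) under vehicle, and its call was lost without Pxr-/- PCN replicate 6. Lrrc15 stood well above background on 3 of the 5 arrays of WT PCN and on none of Pxr-/- PCN, at least 1.21-fold lower (adjusted p = 0.0048), a call lost without WT PCN replicate 4. It had passed the filter through WT PCN alone, the group in which it was high. With the deposited values the calls of 9530053J19Rik (0.58, adjusted p = 0.065) and Plcxd2 (0.49, adjusted p = 0.051) were lost, and with normexp correction those of Lrrc15 (-0.40) and 5330426P16Rik (-0.40) fell under the fold limit.

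To see which members respond to the ligand at all, PCN was compared with vehicle within each genotype. These comparisons use the same arrays as the genotype comparisons. In WT mice 14 members rose (2.73% against 3.38% of all probes) and 12 fell (2.34% against 2.13%). In Pxr-/- mice 9 rose (1.75% against 1.23%) and 2 fell (0.390% against 0.698%). The window was thus close to the whole array in its response to PCN. None of the 13 probes that passed the adjusted p in both genotype comparisons was called in either PCN comparison. Cd47 alone of them passed the adjusted p, at -0.36 with PCN (adjusted p = 0.0015) in WT and -0.27 (adjusted p = 0.028) in Pxr-/- mice, below the fold limit. In WT mice both Tfrc probes, for the transferrin receptor, rose by 1.14 and 1.41 (adjusted p = 0.0018 and 0.0011), against 0.29 and 0.37 in Pxr-/- mice (adjusted p = 0.50 and 0.46). Fstl1, a secreted glycoprotein gene 0.41 Mb below Pxr, rose by 1.11 and 1.20 on 2 of 3 probes in WT mice (adjusted p = 2.1e-04 and 3.2e-04). Il1rap, the accessory chain of the interleukin-1 receptor, fell by 1.07 and 0.76 in WT mice on the 2 probes given of 4 kept (adjusted p = 0.0038 and 3.2e-06). The interaction was not called for Tfrc, Fstl1 or Il1rap, and it passed the adjusted p for the dimmer of the 2 Il1rap probes given (0.50, adjusted p = 0.034, under the fold limit). The small nucleolar RNA Snora81 fell by 1.14 in WT mice (adjusted p = 5.9e-06) and stood at -0.50 (adjusted p = 0.026, under the fold limit) in Pxr-/- mice. Pvrl3, the gene of a cell adhesion protein also called nectin-3, fell by 0.62 in WT mice (adjusted p = 4.5e-05) on the 1 probe given of 4 kept. Camk2n2, an inhibitor of calmodulin-dependent kinase, fell in WT mice (-0.99, adjusted p = 0.0042) as in Pxr-/- mice (-0.90, adjusted p = 0.020). Ccdc80, a matrix protein gene, rose by 0.96 and 0.71 (adjusted p = 0.0029 and 0.043). Close to Pxr, AU021884 (-0.59, adjusted p = 0.043) and Tmem39a (0.63, adjusted p = 0.0019) were called in Pxr-/- mice, beside -0.53 (adjusted p = 0.037) and 0.31 (adjusted p = 0.048) in WT mice, under the fold limit.

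A second set was higher with PCN, most of it in both genotypes. Retnlg, a resistin-like gene of granulocytes, read 5.65 to 6.99 in WT CONT and 9.11, 8.59, 7.93, 9.66 and 9.61 in WT PCN. In Pxr-/- mice it read 5.49 to 7.37 without and 8.20 to 10.09 with PCN. PCN groups lay above vehicle groups in each genotype, by 2.76 ± 0.39 in WT mice (limma adjusted p = 3.8e-05) and 2.76 ± 0.37 in Pxr-/- mice (adjusted p = 4.8e-04). The stefin A genes, a cluster of cysteine protease inhibitors about 2 Mb below Pxr, were also higher. Stfa2 rose by 1.27 and 1.26 (adjusted p = 0.0015 and 0.0050) and Stfa2l1 by 1.02 and 1.23 (adjusted p = 0.0020 and 0.0018) in WT and Pxr-/- mice. Gm5483 was well above background on no WT CONT array and was at least 2.08-fold higher with PCN in WT mice (adjusted p = 5.3e-04). It was also called in Pxr-/- mice (1.28, adjusted p = 0.0014). BC100530 was at least 1.41-fold higher in WT (adjusted p = 0.026) and at least 2.73-fold higher in Pxr-/- mice (adjusted p = 0.0015), and Stfa1 at least 2.05-fold higher in Pxr-/- mice (adjusted p = 0.0041).

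These genes are near copies of each other, so probes may share signal between them. The neutrophil genes S100a8 and S100a9, on another chromosome, were also higher with PCN, by 2.21 and 2.03 in WT (adjusted p = 0.0015 for each) and by 2.19 and 2.00 in Pxr-/- mice (adjusted p = 0.0052 and 0.0053). They did not separate the genotypes under PCN (0.14 and 0.13, adjusted p = 0.89 for each). On the whole blood marker list 7 of 8 genes were kept and these 2 were called, with a summed log2 level of 16.39 to 17.81 in WT CONT, 16.54 to 17.20 in WT PCN, 16.78 to 17.74 in Pxr-/- CONT and 16.34 to 17.62 in Pxr-/- PCN. Their part in the stefin and Retnlg result was not tested. Under PCN, BC100530 (1.05, adjusted p = 0.023) and Stfa1 (0.96, adjusted p = 0.026) were higher in Pxr-/- than in WT mice, and both calls were lost when the PCN groups were fitted alone (adjusted p = 0.12 for each) and without WT PCN replicate 2, WT PCN replicate 3 or Pxr-/- PCN replicate 3. Both had passed the filter through PCN groups.

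**Figure D5:**
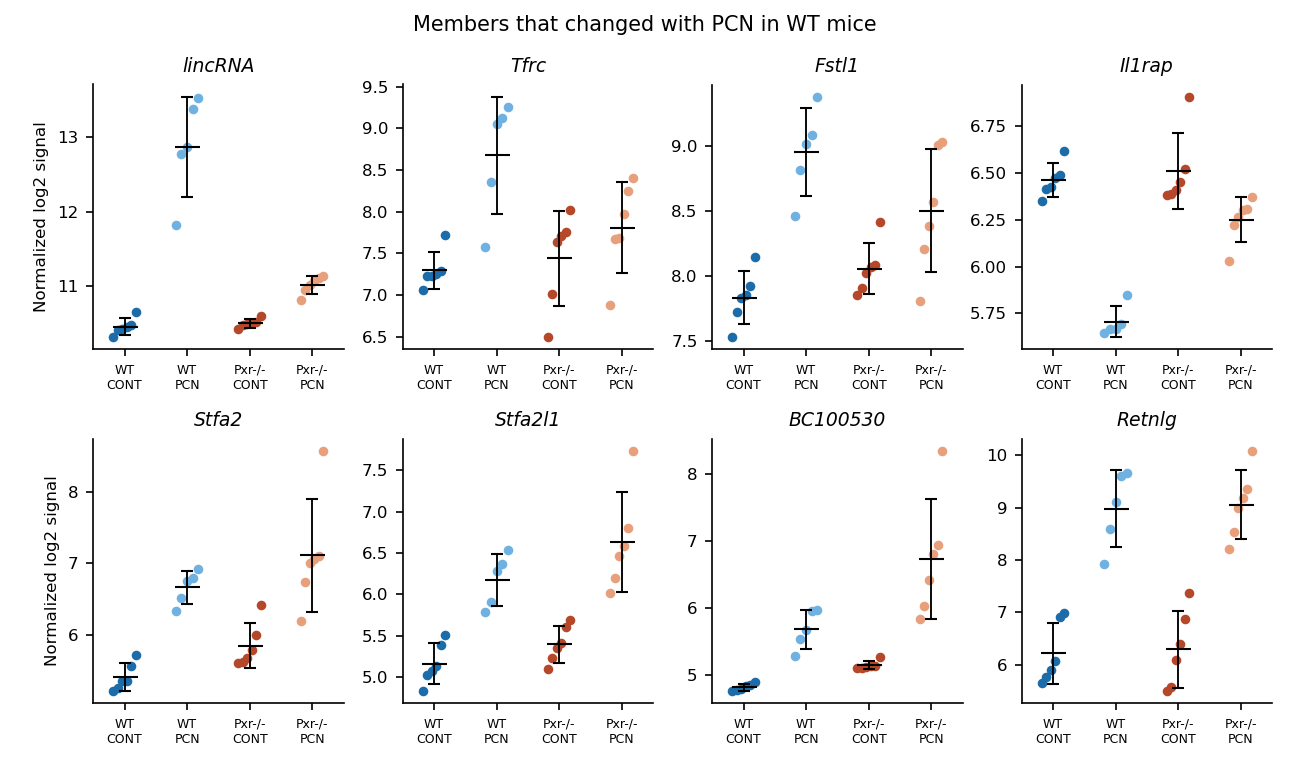
Normalized log2 signal (y axis) of each array in the 4 groups for 8 members called for PCN in WT mice, with mean and SD (n = 6, and 5 in WT PCN). The lincRNA reached 11.82 to 13.53 in WT PCN and at most 11.14 in the other groups, whereas Stfa2, Stfa2l1, BC100530 and Retnlg rose in both genotypes.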

How the data were processed

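Liver RNA of 23 mice was hybridised to Agilent 8x60K mouse arrays in 1 colour (1 scan day, 8 slides, 2 washing batches). The deposited scanner files hold the median spot intensity of each probe, which the authors extracted with Agilent Feature Extraction 10.10.1.1 without normalization between arrays. The authors also deposited a table of normalized log2 values, of which 32574 probes were used as an alternative (98.1% were also kept here). Genome positions and gene names are those of the scanner files (mm9). Of the 324 gene names, 221 are current RefSeq symbols and 11 are synonyms.

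Intensities were log2 transformed, spots with an outlier flag were treated as missing (2225 over all arrays), and spots of a probe were averaged. Probes were kept where over 50% of arrays had them well above background in 1 or more of the groups, and their values were quantile normalized. The 4 groups and the washing batch were fitted with limma 3.58.1 in R 4.3.3 (18 residual degrees of freedom), with Benjamini-Hochberg adjustment over 32087 probes. The study also used limma and these thresholds, but it removed the effect of washing batch beforehand and normalized with CrossNorm, where quantile normalization and a batch term stand here. A call needed an adjusted p of at most 0.05 and a fold above 1.5, and a gene was counted as called when any of its probes was. Missing values were left out of the fit of that probe. The procedure was tested on simulated data. Groups came from the sample labels.

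Genes with values in the text were chosen by rule: those called alike in both genotype comparisons, up to 6 more of each comparison and direction, those called in the interaction, and up to 6 of the genes near the locus and of the plasma protein genes by signal. Other kept probes are reported for the genes chosen from the genotype comparisons. Genes near the locus and plasma protein genes were read from 1 probe each. Genes past the adjusted p alone and those that responded to PCN were named after their values were seen. The members and the gene lists were chosen with earlier results of these data known. Alternatives changed the signal column, background correction, normalization, filter, batch term, slide or replicate block, groups fitted, fold limit, window and probes per gene, or left out 1 array at a time. Values of 1 WT PCN mouse named in the protocol were not analysed here. Agreement of replicate numbers between groups was checked through 22 pairs of same-numbered arrays, whose deviations correlated at -0.088 to 0.489.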

Additional observations from a re-analysis of the deposited data

Results flagged for a closer look

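Of 148 groups of arrays tested at 37 probes, 8 (5.41%, where chance gives about 1 in 20) had 1 array far from the rest. Ift57 read 8.98 in Pxr-/- CONT replicate 2, the highest of its group, and 7.47 in Pxr-/- PCN replicate 2, the lowest of its group, and both stayed above every WT array. A130072N09Rik read 8.61 in WT PCN replicate 2, below the other 4. BC100530 read 5.26 in Pxr-/- CONT replicate 6 on a dim probe. Plcxd2 read 10.65 in WT PCN replicate 2, the array on which its genotype call rests. Ndufb4 read 14.77 in WT PCN replicate 1, Ahsg 18.26 and Masp1 12.90 in WT CONT replicate 2, each within a narrow range of values.

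The genotype difference itself differed between PCN and vehicle for 2 lincRNA probes (limma interaction). It changed by -1.92 (adjusted p = 8.4e-05) for the probe 7.31 Mb below Pxr and by -0.65 (adjusted p = 0.040) for the probe 0.19 Mb below Pxr. The first was called in all 23 fits that left out 1 array and the second in 10.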

How the results depend on the processing

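Main counts of called members were 11 under vehicle, 22 under PCN, 6 alike in both, 2 in the interaction, 26 for PCN in WT and 11 for PCN in Pxr-/- mice. None of the 40 differences of named probes that were recomputed changed sign under an alternative. Pigx, Senp5 and Ift57 stayed called in both comparisons except in fits of 1 washing batch (Ift57 stayed in batch 1) and, for Ift57, in the window of 10 Mb, which leaves it out. Processed signal gave 43 for PCN in WT (17 higher, 26 lower), normexp 1 for the interaction, and the deposited values 10 alike in both and 5 higher against 27 lower under PCN, where the median over all probes lay at -0.108 (vehicle) and -0.182 (PCN). No filter gave 1 for the interaction. Probes above background on all arrays gave 1 for the interaction, 17 for PCN in WT and 4 in Pxr-/- mice. Washing batch 1 alone gave 2, 11, 2 and 1 for the first 4 and 6 for PCN in Pxr-/- mice; batch 2 alone gave 4, 3 and 0 for the first 3, and 13 and 1 for PCN in WT and Pxr-/- mice. The adjusted p alone gave 57 under PCN, 13 alike, 4 in the interaction, and 116 and 35 for PCN in WT and Pxr-/- mice. The 10 Mb window gave 14 under PCN and 16 for PCN in WT, and 1 probe per gene 17 for PCN in WT. Without 1 array, counts ran from 11 to 13, 16 to 25, 6 to 10, 1 to 4, 22 to 29 and 8 to 13. Whether replicate numbers pair the mice was not settled. Of 22 correlations 9 lay above 0.1, the highest 0.489 for replicate 2 of Pxr-/- CONT and WT CONT. No baseline from differently numbered arrays is given. A replicate block gave 11, 25, 7, 2, 24 and 9.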
